A study of Homo sapiens with 6 samples.

Results

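The genes described here encode the proteins of the extracellular matrix and the enzymes that mature, crosslink or cut them: collagens, laminins, matrix glycoproteins, proteoglycans, collagen-modifying and crosslinking enzymes, and matrix proteases with their inhibitors. They were listed by symbol from their known function, with earlier results of these data known. Of the 56 symbols, 55 had a row of that name among the 25365 rows of the deposited table, and CTSL1 appeared there only under its current symbol CTSL, which is given apart. The values are FPKM (fragments counted per kilobase of transcript and scaled to library depth), a unit that can be compared between genes. Of the 55 genes, 45 had at least 1 FPKM in at least 3 libraries and were tested together with the rest of 11770 such genes, and the other 10 lay below that limit.

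The matrix is built in layers. Basement membranes are sheets of laminins and network-forming collagens held together by proteoglycans, whereas the interstitial matrix between cells holds fibrillar collagens, fibronectin and microfibrils. Collagen chains are hydroxylated in the endoplasmic reticulum, crosslinked by lysyl oxidases after secretion and cut by matrix metalloproteinases, which tissue inhibitors of metalloproteinases (TIMPs) block. In breast cancer, remodelling of this matrix by tumour cells and fibroblasts is known to accompany invasion.

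The cells were MDA-MB-231, an established line of triple-negative breast cancer with mesenchymal traits, grown without stromal cells. In 3 libraries the cells had received si-NRDE2-2, an siRNA against NRDE2 (a nuclear protein that binds the helicase of the RNA exosome), and in 3 they had received si-Control, the control siRNA. Both were given at 20 nM with lipofectamine RNAiMAX, RNA was taken after 48 h, and the comparison asks how the mRNA profile differs when NRDE2 is depleted. A single siRNA against NRDE2 was used in a single line, and the labels do not say whether the replicates came from separate cultures. The p-values therefore reflect only how far these libraries spread, which may be technical.

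NRDE2 itself was at 0.230, 0.234 and 0.229 FPKM in si-NRDE2-2 replicates 1, 2 and 3, against 4.39, 4.45 and 3.80 FPKM in the si-Control replicates (log2 fold change -3.70 ± 0.10, adjusted p = 4.56e-09), as the label of each library says. Depth, estimated from the steps between the lowest values, ran from 41400000 to 52600000 fragments in si-NRDE2-2 libraries and from 49900000 to 56900000 in si-Control libraries. The mesenchymal markers VIM, CD44, AXL, CAV1 and MSN, all expressed, summed to between 2005 and 2051 FPKM with si-NRDE2-2 and between 1995 and 2148 FPKM with si-Control. Within that sum CD44 rose (182 ± 1.79 FPKM with si-NRDE2-2 and 152 ± 4.86 FPKM with si-Control, adjusted p = 0.000798) and AXL fell (156 ± 2.56 FPKM with si-NRDE2-2 and 195 ± 1.28 FPKM with si-Control, adjusted p = 0.000124). Of 8 luminal markers ESR1, PGR and FOXA1 averaged 0.00203, 0.00212 and 0.0298 FPKM over all libraries, whereas the keratin genes KRT8 and KRT18 averaged 314 and 294 FPKM, ERBB2 11.7, EPCAM 7.99 and GATA3 2.14 FPKM. Of these KRT18 rose (adjusted p = 0.00880) and ERBB2 fell (adjusted p = 0.00111). Markers of other cells were low, and their sums per list were higher with si-NRDE2-2, which does not mean that each marker was. The 6 fibroblast markers (DCN, LUM, PDGFRA, PDGFRB, FAP, THY1) summed to between 1.90 and 2.01 FPKM with si-NRDE2-2 and between 1.61 and 1.72 FPKM with si-Control. The 5 endothelial markers summed to between 1.98 and 2.18 FPKM with si-NRDE2-2 and between 1.11 and 1.29 FPKM with si-Control, and the 5 leukocyte markers to between 3.17 and 3.24 FPKM with si-NRDE2-2 and between 1.74 and 2.42 FPKM with si-Control. PDGFRB (1.504 ± 0.0942 FPKM with si-NRDE2-2 and 1.17 ± 0.0524 FPKM with si-Control, adjusted p = 0.0110) and CD14 (2.32 ± 0.0716 FPKM with si-NRDE2-2 and 1.44 ± 0.233 FPKM with si-Control, adjusted p = 0.000499) were the markers of these 3 lists that entered the test, and both rose. They made up most of the fibroblast and leukocyte sums, and the fibroblast sum rose by no more than about the rise of PDGFRB alone. Of the markers that did not enter the test, DCN, PDGFRA, CDH5 and PTPRC averaged 0.0161, 0.00986, 0.0121 and 0.0444 FPKM over all libraries. The highest of them were PECAM1, KDR, LYZ and LUM, which averaged 0.856, 0.691, 0.671 and 0.384 FPKM. The part of these differences in the results was not tested.

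More matrix genes rose than fell after si-NRDE2-2, with rises in the type VI collagens, fibronectin, lysyl oxidase, TIMP1 and TIMP3 and falls in perlecan, agrin and LAMB2. Of the 45 tested genes 22 rose, 9 fell and 14 did not pass (adjusted p under 0.05 by limma with Benjamini-Hochberg adjustment over all tested genes), so 68.9% were called. The background was high: of all tested genes 20.9% rose and 23.0% fell, 44.0% in all. The list was chosen with earlier results of these data known, so this contrast is not an independent test. Of the tested collagens 61.5% were called, of the laminins 50%, of the glycoproteins 75% and of the proteoglycans 100%. The share was 66.7% for the crosslinking enzymes and 75% for the proteases and inhibitors. Each share rests on few genes and is to be read against the 44.0% of all tested genes. The median log2 fold change was 0.12 over the 45 genes and -0.02 over all tested genes, and the median size without sign was 0.25 and 0.14. The 3 si-NRDE2-2 values lay apart from the 3 si-Control values for 37 of the 45 (27 higher and 10 lower with si-NRDE2-2), against 53.5% of all tested genes. Most changes were small: 4 genes rose by more than 1.5-fold on this scale (COL6A3, COL8A1, FN1 and MMP1) and 1 fell by more (HSPG2). Of all 11770 tested genes 367 rose and 194 fell by more than 1.5-fold. Log2 fold changes are si-NRDE2-2 over si-Control on the log2(FPKM + 0.1) scale with their standard error, and levels are mean ± SD with n = 3 per group. In such bulk RNA, fewer cells that express a gene and less RNA per cell cannot be told apart.

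**Figure D1:**
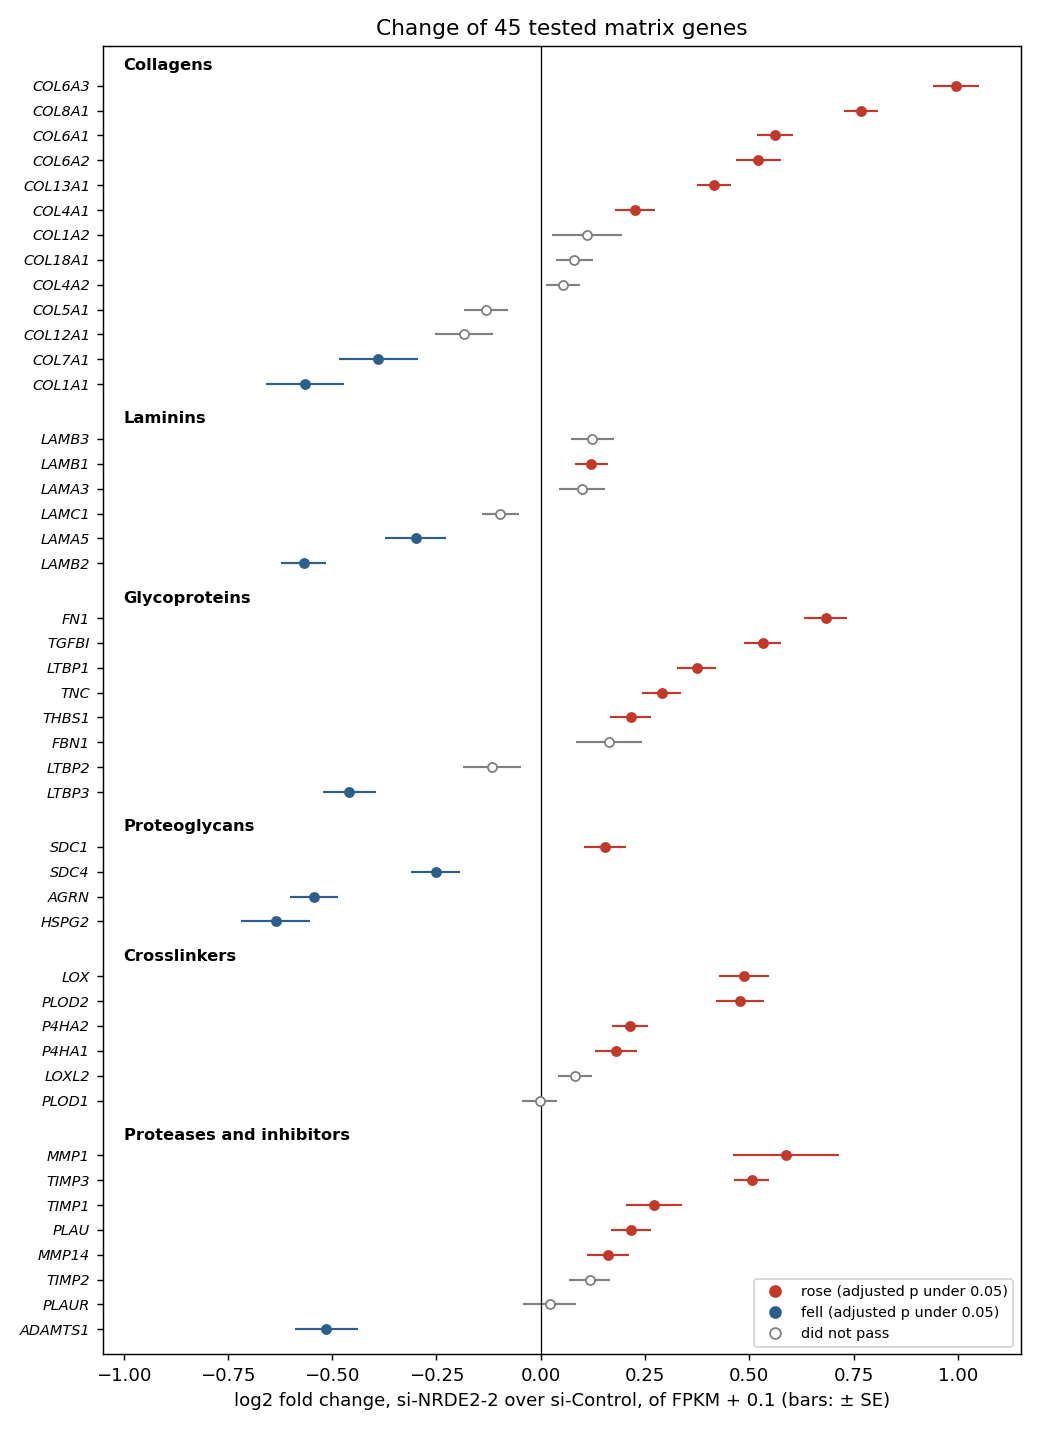
Log2 fold change (si-NRDE2-2 over si-Control, of FPKM + 0.1) of the 45 tested matrix genes by functional group, with bars of 1 SE. Red points rose and blue points fell at an adjusted p under 0.05, and open grey points did not pass. The change ran from -0.64 for HSPG2 to 0.996 for COL6A3.

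An siRNA can also lower mRNAs other than its target through short matches in their 3′ untranslated regions (UTRs). Earlier work on this table had picked the sequence GACGTA, the sequence GACAGTA and the sequence GACTGTA from these same fold changes as sequences frequent in the 3′ UTRs of genes that rose, that is, of genes lower in the si-Control libraries. In the GENCODE 29 annotation, with 1 transcript per gene, the 3′ UTR held at least 1 of them in 17.2% of the 11000 tested genes that had one, and in 55.2% of the 67 genes at least 2-fold higher. Among the 45 matrix genes 6 held such a sequence (13.3%): 5 of the 22 that rose (22.7%, against 31.7% of all tested genes that rose), 0 of the 9 that fell (9.39% of all that fell) and 1 of the 14 that did not pass, FBN1. FBN1 held GACTGTA at both position 1381 and position 2269 of its 3′ UTR. COL6A3, COL6A1, COL6A2, FN1, TGFBI, TIMP3 and MMP1 held none of the 3. The windows of the 5 genes that rose are shown because each group had 1 siRNA, so that lowering of such mRNAs by si-Control and a rise with the loss of NRDE2 cannot be told apart. No siRNA sequence was compared with these windows. Each is 30 bases of GRCh38 on the transcript's strand, 5′ to 3′, with the searched sequence in capitals.
COL8A1 (chr3:99796849-99796878, plus strand): gtggagcattaGACAGTAaccctcaaggag
TNC (chr9:115020566-115020595, minus strand): aaacatttctgGACAGTAcctgattgtatt
THBS1 (chr15:39596478-39596507, plus strand): agagtcttcgtGACTGTAagattgtaaata
P4HA2 (chr5:132191873-132191902, minus strand): gcttattgtagGACTGTAccataatacagg
SDC1 (chr2:20201791-20201820, minus strand): cagacagagagGACTGTAgggagggcggca

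Among the collagens the 3 type VI chains, COL8A1, COL13A1 and COL4A1 rose, while COL1A1 and COL7A1 fell. Of 15 collagen genes 13 were tested, 6 rose, 2 fell and 5 did not pass, with a median log2 fold change of 0.11. Type VI collagen forms beaded microfibrils around cells, from a chain of each of the 3 genes. COL6A3 was at 18.3, 18.6 and 18.8 FPKM in si-NRDE2-2 replicates 1, 2 and 3, against 9.72, 9.54 and 8.55 FPKM in the si-Control replicates. It rose 2.00-fold, the largest rise of the list (0.996 ± 0.06, adjusted p = 2.92e-07). COL6A1 was at 49.6, 45.8 and 47.6 FPKM with si-NRDE2-2, against 32.3, 32.1 and 32.4 FPKM with si-Control (0.56 ± 0.04, adjusted p = 2.65e-06). COL6A2, which lies next to COL6A1 on chromosome 21, was at 26.4, 24.7 and 24.9 FPKM with si-NRDE2-2, against 16.7, 17.3 and 18.9 FPKM with si-Control (0.52 ± 0.05, adjusted p = 2.48e-05). For all 3 chains every si-NRDE2-2 library lay above every si-Control library. The rise was unequal. The ratio of COL6A3 to COL6A1 within a library was 0.369, 0.406 and 0.394 with si-NRDE2-2, against 0.301, 0.297 and 0.264 with si-Control, without overlap. The ratio of COL6A2 to COL6A1 overlapped between groups (0.532 ± 0.00790 with si-NRDE2-2 and 0.547 ± 0.0347 with si-Control). An exact two-sided permutation test on 3 against 3 libraries cannot go below p = 0.1, the value reached for COL6A3 to COL6A1, and gave p = 0.6 for COL6A2 to COL6A1.

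COL8A1, a short network-forming collagen of vessel walls and other matrices, was at 39.0, 39.9 and 40.6 FPKM in the si-NRDE2-2 replicates, against 23.8, 23.4 and 22.9 FPKM in the si-Control replicates. These values lay far apart relative to their spread (0.77 ± 0.04, adjusted p = 2.01e-07). Of the 4 genes that rose by more than 1.5-fold, COL8A1 was the one that held a searched 3′ UTR sequence. COL13A1, which encodes a collagen anchored in the plasma membrane and was the most abundant collagen mRNA per length in these cells, averaged 79.9 ± 0.648 FPKM with si-NRDE2-2 and 59.9 ± 1.63 FPKM with si-Control (0.42 ± 0.04, adjusted p = 1.74e-05).

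In the opposite direction, COL1A1, which encodes the major chain of fibrillar type I collagen, was at 2.71, 2.13 and 2.69 FPKM in the si-NRDE2-2 replicates, against 3.88, 3.81 and 3.53 FPKM in the si-Control replicates (-0.56 ± 0.09, adjusted p = 0.000659). Its partner chain COL1A2 averaged 1.58 ± 0.0865 FPKM with si-NRDE2-2 and 1.46 ± 0.0687 FPKM with si-Control, with overlap (0.11 ± 0.08, adjusted p = 0.315). Both chains of this collagen were low. COL7A1, the collagen of the fibrils that anchor epithelia to the dermis, was at 6.93, 5.92 and 5.64 FPKM with si-NRDE2-2, against 9.17, 8.01 and 7.15 FPKM with si-Control (-0.39 ± 0.10, adjusted p = 0.00675). The groups lay close here, the highest si-NRDE2-2 value just under the lowest si-Control value. The fibril-regulating COL5A1, at 48.1, 46.2 and 48.0 FPKM with si-NRDE2-2 and 53.2, 54.8 and 48.0 FPKM with si-Control (-0.13 ± 0.05, adjusted p = 0.0647) did not pass. Neither did the fibril-associated COL12A1, at 7.83, 7.73 and 7.84 FPKM with si-NRDE2-2 and 9.77, 9.01 and 7.93 FPKM with si-Control (-0.18 ± 0.07, adjusted p = 0.0546). In both genes si-Control replicate 3 was the si-Control library nearest to the si-NRDE2-2 libraries. Both passed as lower when si-Control replicate 3 was left out (adjusted p = 0.00396 and 0.00449, in ranges of 0.00396 to 0.257 and 0.00449 to 0.216 over 18 alternatives), which makes 4 collagens that fell in place of 2. COL12A1 also passed with quantile normalization (adjusted p = 0.0468). COL18A1, the basement membrane collagen from which endostatin is cut, averaged 45.5 ± 1.94 FPKM with si-NRDE2-2 and 43.0 ± 0.787 FPKM with si-Control (0.08 ± 0.04, adjusted p = 0.168).

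COL4A1 and COL4A2 are the partner chains of the main basement membrane network. They are transcribed in opposite directions from neighbouring start sites, which RefSeq places 127 bases apart on chromosome 13 (GRCh38.p14), so that they share 1 promoter region. COL4A1 was at 12.8, 13.4 and 13.3 FPKM in the si-NRDE2-2 replicates, against 11.5, 11.4 and 10.8 FPKM in the si-Control replicates (0.23 ± 0.05, adjusted p = 0.00304). COL4A2 was at 34.7, 34.4 and 35.3 FPKM with si-NRDE2-2, against 33.8, 33.9 and 32.8 FPKM with si-Control (0.05 ± 0.04, adjusted p = 0.301). Neither gene's groups overlapped, but only COL4A1 passed the test. The ratio of COL4A2 to COL4A1 was 2.72, 2.57 and 2.66 with si-NRDE2-2, against 2.96, 2.98 and 3.04 with si-Control, also without overlap (exact two-sided permutation p = 0.1, the smallest that 3 against 3 allows). The 128 bases from the COL4A1 start to the COL4A2 start, read 5′ to 3′ on the plus strand, are printed because both genes share them, and capitals mark the only copy of CCAAT (searched on both strands).
COL4A1 to COL4A2 (chr13:110307157-110307284, plus strand): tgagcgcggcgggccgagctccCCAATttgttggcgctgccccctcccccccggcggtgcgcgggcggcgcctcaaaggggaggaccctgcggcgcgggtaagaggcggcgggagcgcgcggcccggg
CCAAT or its complement ATTGG lies in 21.2% of the 35116 promoter windows of this length in the RefSeq table. The match is a description of the letters, not of a bound factor.

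**Figure D2:**
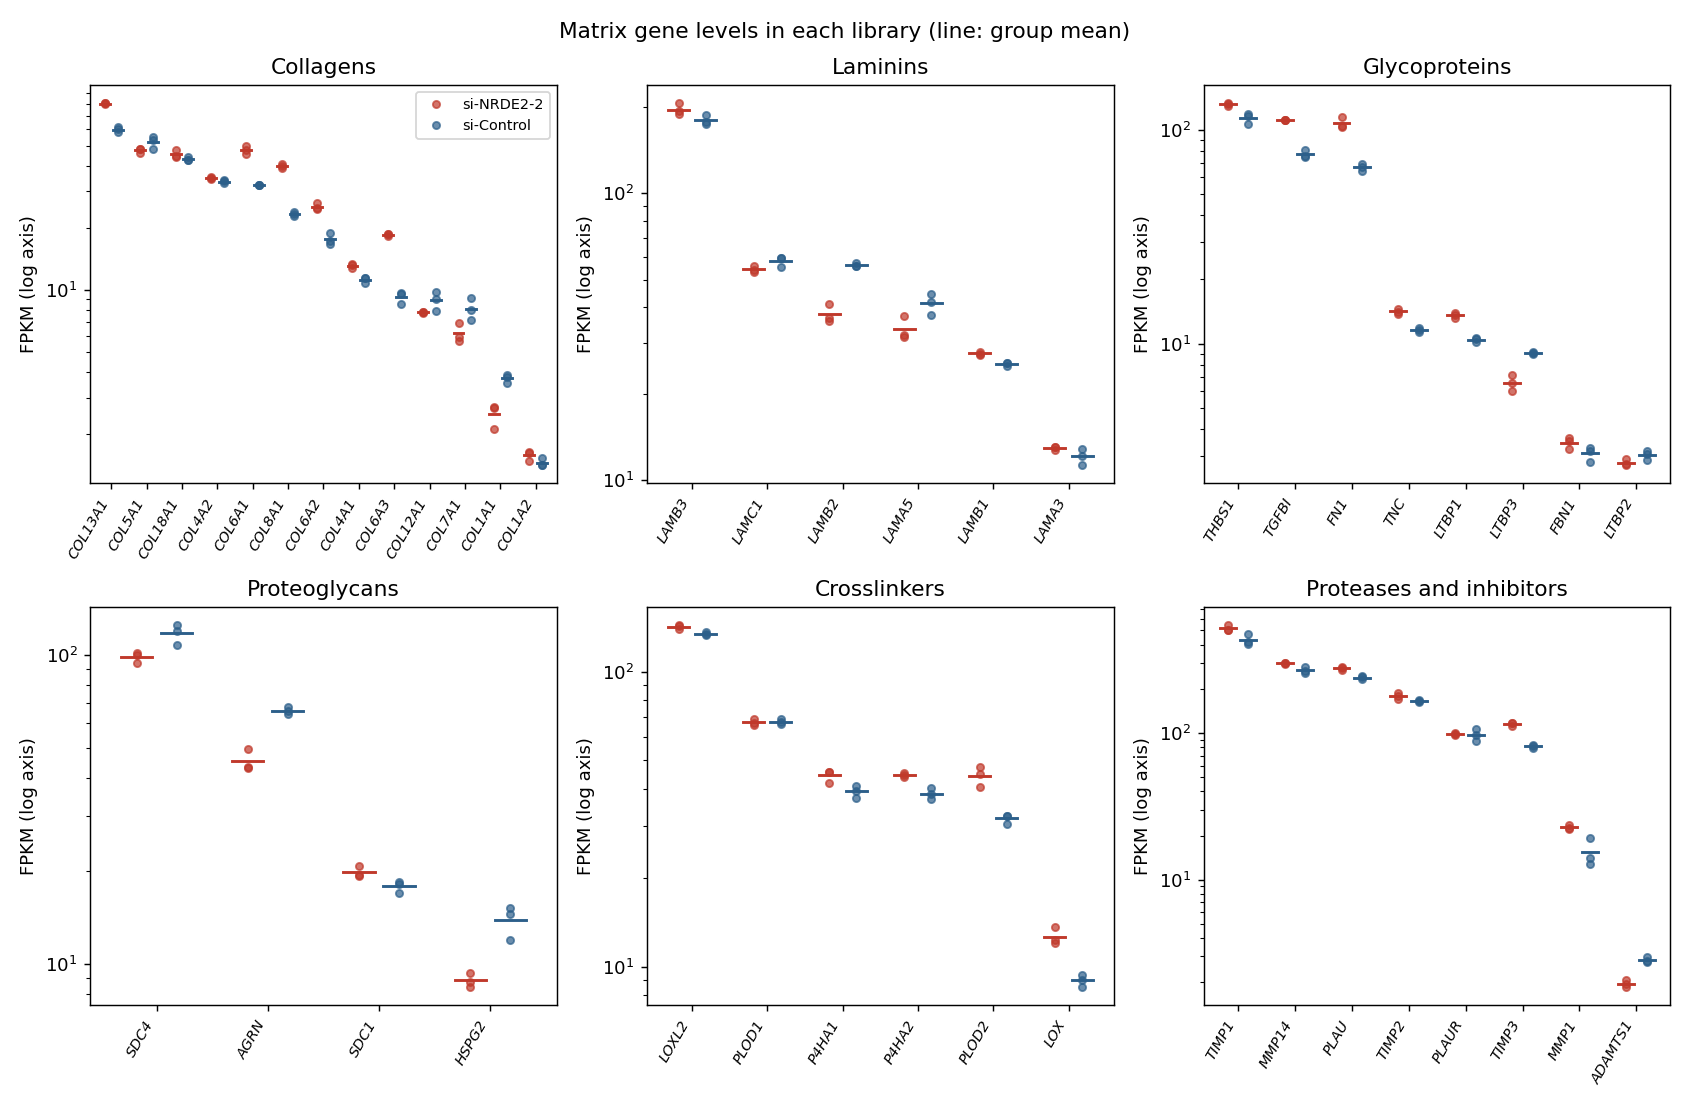
FPKM (log axis) of the 45 tested matrix genes in every library, si-NRDE2-2 in red and si-Control in blue, with a line at each group mean and genes ordered by their si-Control mean within each functional group. The 3 COL6 genes, COL8A1, FN1, TGFBI and TIMP3 stand higher with si-NRDE2-2, and LAMB2, AGRN, HSPG2 and LTBP3 lower, without overlap.

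Laminins are cross-shaped trimers of an alpha, a beta and a gamma chain. Of 7 laminin genes 6 were tested, 1 rose, 2 fell and 3 did not pass (median log2 fold change 0.00075). That is 50% called, near the 44.0% of all tested genes. LAMB2, a beta chain of kidney and neuromuscular basement membranes, was at 41.2, 36.0 and 36.7 FPKM in the si-NRDE2-2 replicates, against 57.2, 55.6 and 55.9 FPKM in the si-Control replicates (-0.57 ± 0.05, adjusted p = 1.25e-05). All si-NRDE2-2 values were far below the si-Control values. LAMA5, an alpha chain of widespread basement membranes, was at 37.3, 32.0 and 31.4 FPKM with si-NRDE2-2, against 44.5, 41.9 and 37.6 FPKM with si-Control (-0.30 ± 0.07, adjusted p = 0.00696). Its groups were separated only narrowly. LAMB1, which can take the place of LAMB2 in a trimer, was at 27.4, 27.6 and 28.1 FPKM with si-NRDE2-2, against 25.7, 25.5 and 25.1 FPKM with si-Control (0.12 ± 0.04, adjusted p = 0.0273). That call did not survive leaving out si-NRDE2-2 replicate 2 (adjusted p = 0.0923), si-NRDE2-2 replicate 3 (0.101), si-Control replicate 1 (0.0544) or si-Control replicate 2 (0.0813, in a range of 0.00247 to 0.101 over 18 alternatives), which leaves 0 laminins that rose. It was also lost with libraries scaled to the same total (adjusted p = 0.0795), with no trend in the prior variance (0.0510) and with the replicate number as a block (0.0696). The ratio of LAMB2 to LAMB1 was 1.51, 1.30 and 1.31 with si-NRDE2-2, against 2.23, 2.18 and 2.23 with si-Control, without overlap (exact two-sided permutation p = 0.1, the smallest possible). The common gamma chain gene LAMC1 averaged 54.4 ± 1.27 FPKM with si-NRDE2-2 and 58.2 ± 2.38 FPKM with si-Control (-0.10 ± 0.05, adjusted p = 0.104).

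LAMA3 and LAMB3 encode chains of the laminin of epithelial anchoring sites. LAMB3, the most abundant laminin mRNA of the list, averaged 196 ± 9.37 FPKM with si-NRDE2-2 and 179.8 ± 6.55 FPKM with si-Control and did not pass (0.12 ± 0.05, adjusted p = 0.0737). LAMB3 passed as higher without si-Control replicate 3 (adjusted p = 0.0171, in a range of 0.00283 to 0.242), which makes 2 laminins that rose. It also passed with quantile normalization (0.0247) and with libraries scaled to the same total (0.0237). LAMA3 averaged 12.9 ± 0.186 FPKM with si-NRDE2-2 and 12.1 ± 0.811 FPKM with si-Control (0.10 ± 0.06, adjusted p = 0.173). Within libraries the ratio of LAMA3 to LAMB3 overlapped between groups (0.0662 ± 0.00396 with si-NRDE2-2 and 0.0674 ± 0.00646 with si-Control, exact permutation p = 0.7). LAMA4, an alpha chain of vessels and mesenchyme, stayed under the filter with 0.900, 0.670 and 0.756 FPKM in the si-NRDE2-2 replicates, against 0.525, 0.415 and 0.522 FPKM in the si-Control replicates.

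**Figure D3:**
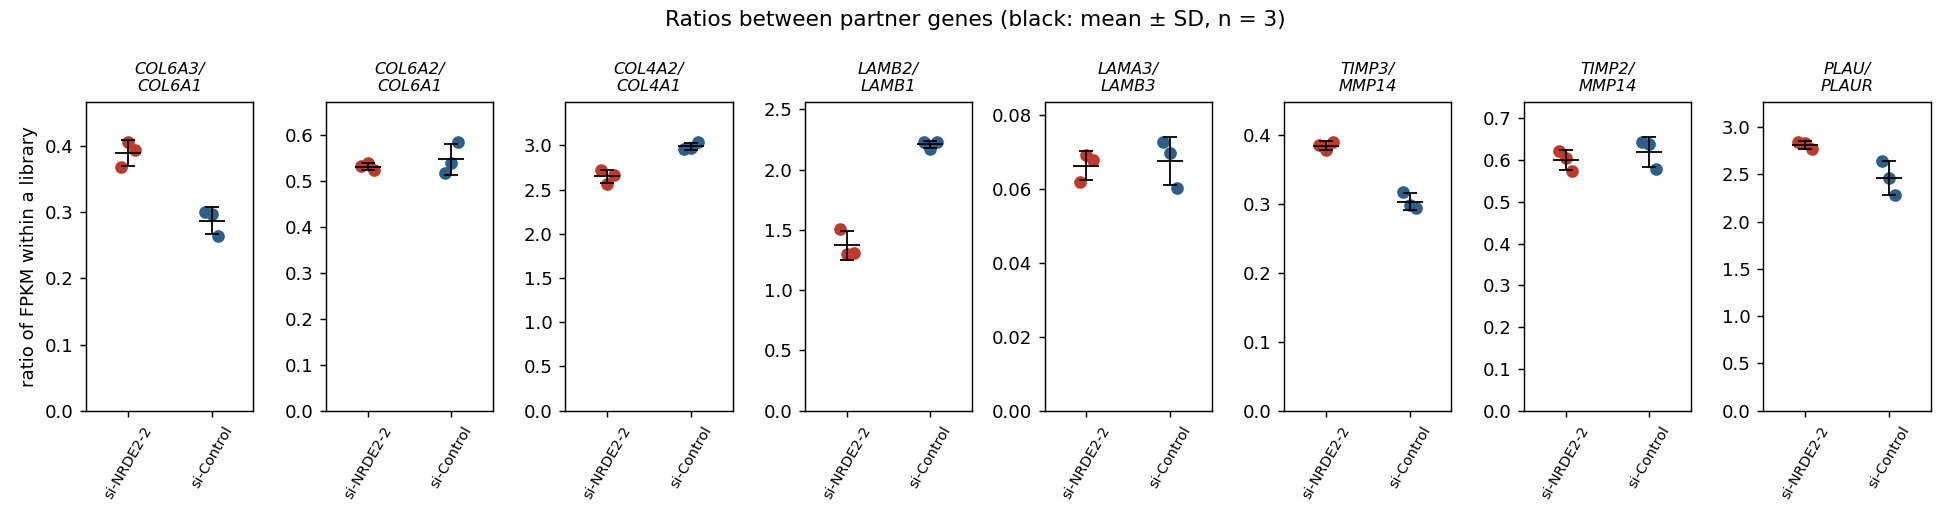
Ratio of FPKM within each library for partner genes, si-NRDE2-2 in red and si-Control in blue, with the mean and SD of 3 libraries in black. The ratios COL6A3/COL6A1, TIMP3/MMP14 and PLAU/PLAUR lie higher and COL4A2/COL4A1 and LAMB2/LAMB1 lower with si-NRDE2-2, whereas COL6A2/COL6A1, LAMA3/LAMB3 and TIMP2/MMP14 overlap.

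Among the glycoproteins FN1, TGFBI, TNC, THBS1 and LTBP1 rose and LTBP3 fell. Of 10 genes 8 were tested, 5 rose, 1 fell and 2 did not pass (median log2 fold change 0.25). FN1, the gene of fibronectin, which binds integrins and collagens, was at 105, 104 and 114 FPKM in the si-NRDE2-2 replicates, against 69.4, 67.4 and 64.1 FPKM in the si-Control replicates. The rise was 1.61-fold (0.68 ± 0.05, adjusted p = 2.44e-06). TGFBI, a secreted integrin ligand induced by TGF-beta, was at 111, 111 and 111 FPKM with si-NRDE2-2, against 74.7, 75.4 and 80.5 FPKM with si-Control (0.53 ± 0.04, adjusted p = 4.91e-06). In both genes the groups lay apart by several times their spread. TNC, the gene of tenascin C, averaged 14.2 ± 0.401 FPKM with si-NRDE2-2 and 11.6 ± 0.257 FPKM with si-Control (0.29 ± 0.05, adjusted p = 0.000524). THBS1, whose product thrombospondin can activate latent TGF-beta, averaged 132 ± 2.09 FPKM with si-NRDE2-2 and 114 ± 5.95 FPKM with si-Control (0.22 ± 0.05, adjusted p = 0.00445). TNC and THBS1 are among the genes whose 3′ UTR sequence is printed above.

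The latent TGF-beta binding proteins, which hold that growth factor in the matrix, differed in direction. LTBP1 was at 13.2, 13.7 and 13.9 FPKM in the si-NRDE2-2 replicates, against 10.54, 10.2 and 10.7 FPKM in the si-Control replicates (0.37 ± 0.05, adjusted p = 9.73e-05). LTBP3 was at 7.12, 6.57 and 6.06 FPKM with si-NRDE2-2, against 9.18, 9.05 and 8.97 FPKM with si-Control (-0.46 ± 0.06, adjusted p = 0.000181). So LTBP1 rose and LTBP3 fell, each without overlap between groups. LTBP2, a member of the family that does not bind latent TGF-beta, averaged 2.79 ± 0.107 FPKM with si-NRDE2-2 and 3.03 ± 0.146 FPKM with si-Control (-0.12 ± 0.07, adjusted p = 0.202). The microfibril gene FBN1 averaged 3.46 ± 0.219 FPKM with si-NRDE2-2 and 3.08 ± 0.235 FPKM with si-Control (0.16 ± 0.08, adjusted p = 0.112). The groups overlapped for LTBP2 and FBN1. SPARC, a collagen-binding matricellular protein, stayed under the filter with 0.888, 0.839 and 1.01 FPKM in the si-NRDE2-2 replicates, against 0.606, 0.5001 and 0.506 FPKM in the si-Control replicates.

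Among the proteoglycans HSPG2, AGRN and SDC4 fell and SDC1 rose. Of 6 genes 4 were tested, 1 rose and 3 fell (median log2 fold change -0.40). HSPG2, the gene of the basement membrane proteoglycan perlecan, was at 9.36, 8.41 and 8.75 FPKM in the si-NRDE2-2 replicates, against 15.1, 14.5 and 11.9 FPKM in the si-Control replicates, the largest fall of the list (-0.64 ± 0.08, adjusted p = 0.000115). AGRN, the gene of agrin, which binds laminins and organises synapses, was at 49.6, 43.2 and 43.0 FPKM with si-NRDE2-2, against 67.6, 64.4 and 65.6 FPKM with si-Control (-0.54 ± 0.06, adjusted p = 2.81e-05). The values of these basement membrane genes did not overlap between groups. The syndecans are heparan sulphate carriers of the cell surface and differed in sign. SDC4 was at 101, 93.8 and 99.7 FPKM with si-NRDE2-2, against 119, 108 and 125 FPKM with si-Control (-0.25 ± 0.06, adjusted p = 0.00502). SDC1 was at 19.2, 20.8 and 19.4 FPKM with si-NRDE2-2, against 16.9, 18.4 and 18.1 FPKM with si-Control (0.15 ± 0.05, adjusted p = 0.0281). The SDC1 call was lost without si-NRDE2-2 replicate 2 or si-Control replicate 1 (adjusted p = 0.143 and 0.110, in a range of 0.00469 to 0.143 over 18 alternatives), which leaves 0 proteoglycans that rose. The same held with no filter on low values (adjusted p = 0.0575) and with no trend in the prior variance (0.0504). The small leucine-rich proteoglycan BGN and the large VCAN lay near 0. BGN was at 0.00781, 0.0306 and 0.136 FPKM in the si-NRDE2-2 replicates, against 0.00740, 0.0212 and 0.0403 FPKM in the si-Control replicates. VCAN was at 0.0571, 0.0729 and 0.0382 FPKM in the si-NRDE2-2 replicates, against 0.0415, 0.0317 and 0.0362 FPKM in the si-Control replicates.

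Among the collagen-modifying and crosslinking enzymes 4 of 6 rose and 0 fell (median log2 fold change 0.20), where 20.9% of all tested genes rose and 23.0% fell. LOX, the lysyl oxidase that starts the crosslinks of collagen and elastin, was at 12.03, 12.3 and 13.6 FPKM in the si-NRDE2-2 replicates, against 9.04, 8.52 and 9.37 FPKM in the si-Control replicates (0.49 ± 0.06, adjusted p = 8.53e-05). PLOD2, the lysyl hydroxylase of the collagen telopeptides, was at 40.5, 45.1 and 47.4 FPKM with si-NRDE2-2, against 32.5, 30.5 and 32.4 FPKM with si-Control (0.48 ± 0.06, adjusted p = 7.74e-05). For these enzymes the lowest si-NRDE2-2 library lay well above the highest si-Control library. The prolyl hydroxylase subunit genes P4HA1 and P4HA2, needed for a stable triple helix, had smaller fold changes. P4HA2 averaged 44.7 ± 0.696 FPKM with si-NRDE2-2 and 38.5 ± 1.58 FPKM with si-Control (0.21 ± 0.04, adjusted p = 0.00254). P4HA1 averaged 44.5 ± 2.16 FPKM with si-NRDE2-2 and 39.3 ± 1.78 FPKM with si-Control (0.18 ± 0.05, adjusted p = 0.0141), a call that needed si-NRDE2-2 replicate 2 (adjusted p = 0.0680 without it), si-NRDE2-2 replicate 3 (0.0530) and si-Control replicate 1 (0.0535, in a range of 0.00296 to 0.0680 over 18 alternatives). LOXL2, the most abundant of the 6, averaged 142 ± 2.11 FPKM with si-NRDE2-2 and 134 ± 1.54 FPKM with si-Control and did not pass (0.08 ± 0.04, adjusted p = 0.131), though it passed without si-Control replicate 3 (adjusted p = 0.0439, in a range of 0.00313 to 0.290). The helical lysyl hydroxylase PLOD1 averaged 67.4 ± 1.62 FPKM with si-NRDE2-2 and 67.5 ± 1.36 FPKM with si-Control, with overlap (-0.0023 ± 0.04, adjusted p = 0.968).

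Rises were found among proteases (MMP1, MMP14 and PLAU) and among their inhibitors (TIMP1 and TIMP3), while ADAMTS1 fell. Of 12 listed genes 11 had a row and 8 were tested, of which 5 rose, 1 fell and 2 did not pass (median log2 fold change 0.19). MMP1, the collagenase of fibrillar collagens, was at 22.6, 22.0 and 23.7 FPKM in the si-NRDE2-2 replicates, against 13.98, 12.9 and 19.2 FPKM in the si-Control replicates (0.59 ± 0.13, adjusted p = 0.00588). Its si-Control libraries were uneven, replicate 3 standing above the other two, and the call was lost without si-NRDE2-2 replicate 3 (adjusted p = 0.0598, in a range of 1.17e-05 to 0.0598 over 18 alternatives). MMP14, a membrane-anchored protease that activates MMP2, was the most abundant protease of the list, at 302, 296 and 299 FPKM with si-NRDE2-2, against 257, 265 and 281 FPKM with si-Control (0.16 ± 0.05, adjusted p = 0.0219). Its call was lost when any library other than si-Control replicate 3 was left out (adjusted p from 0.0612 to 0.0879, in a range of 0.000714 to 0.0879 over 18 alternatives). The MMP14 call was also lost with the replicate number as a block (adjusted p = 0.0591). Without si-NRDE2-2 replicate 3 both MMP1 and MMP14 were lost, which leaves 3 of this group that rose. ADAMTS1, a protease that cuts the proteoglycans aggrecan and versican, was the one that fell, at 1.85, 1.93 and 2.06 FPKM with si-NRDE2-2, against 2.73, 2.96 and 2.79 FPKM with si-Control (-0.51 ± 0.08, adjusted p = 0.000284).

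The TIMPs bind the active site of metalloproteinases, and TIMP1 had the highest FPKM of the list in every library. TIMP3, whose product stays bound to the matrix, was at 117, 112 and 117 FPKM in the si-NRDE2-2 replicates, against 81.4, 79.0 and 82.6 FPKM in the si-Control replicates (0.51 ± 0.04, adjusted p = 5.41e-06). TIMP1 was at 546, 503 and 507 FPKM with si-NRDE2-2, against 402, 416 and 473 FPKM with si-Control (0.27 ± 0.07, adjusted p = 0.00711). TIMP2, which takes part in the activation of MMP2 by MMP14, averaged 179.7 ± 8.03 FPKM with si-NRDE2-2 and 166 ± 3.39 FPKM with si-Control (0.12 ± 0.05, adjusted p = 0.0702). TIMP1 and TIMP3 rose and TIMP2 did not pass, although the values of each did not overlap between groups. Per library the ratio of TIMP3 to MMP14 was 0.386, 0.378 and 0.390 with si-NRDE2-2, against 0.317, 0.298 and 0.294 with si-Control, and that of TIMP1 to MMP14 averaged 1.73 ± 0.0645 with si-NRDE2-2 and 1.61 ± 0.0662 with si-Control (exact two-sided permutation p = 0.1 for each, the smallest possible). The ratio of TIMP2 to MMP14 overlapped (exact permutation p = 0.5).

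PLAU, the gene of urokinase, which turns plasminogen into plasmin, was at 284, 279 and 268 FPKM in the si-NRDE2-2 replicates, against 233, 239 and 243 FPKM in the si-Control replicates (0.22 ± 0.05, adjusted p = 0.00360). Its receptor gene PLAUR was at 99.9, 98.8 and 96.9 FPKM with si-NRDE2-2, against 88.0, 97.4 and 107 FPKM with si-Control (0.02 ± 0.06, adjusted p = 0.808). The enzyme gene rose, whereas the receptor values overlapped, and the ratio of PLAU to PLAUR was 2.84, 2.83 and 2.77 with si-NRDE2-2, against 2.64, 2.46 and 2.28 with si-Control. The lysosomal cysteine protease gene CTSL, the current name of CTSL1, averaged 107 ± 2.98 FPKM with si-NRDE2-2 and 104 ± 6.70 FPKM with si-Control, with overlap (0.04 ± 0.05, adjusted p = 0.558).

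Some of the listed matrix genes were low in these cells. The 10 genes under the limit of the test were COL3A1, COL5A2, LAMA4, SPARC, FBN2, BGN, VCAN, MMP2, MMP3 and MMP9. The gelatinase gene MMP2 was at 0.0330, 0.0721 and 0.0480 FPKM in the si-NRDE2-2 replicates, against 0.0998, 0.0399 and 0.0569 FPKM in the si-Control replicates. The other gelatinase gene, MMP9, was at 0.213, 0.217 and 0.276 FPKM in the si-NRDE2-2 replicates, against 0.179, 0.111 and 0.161 FPKM in the si-Control replicates. The stromelysin gene MMP3 was at 0.0754, 0.0738 and 0.0536 FPKM in the si-NRDE2-2 replicates, against 0.0357, 0.0488 and 0.0334 FPKM in the si-Control replicates. All 3 proteases were thus far under MMP14 and MMP1 in every library. The fibril collagen gene COL5A2 averaged 0.147 ± 0.00842 FPKM with si-NRDE2-2 and 0.149 ± 0.00168 FPKM with si-Control, and the microfibril gene FBN2 averaged 0.0294 ± 0.00363 FPKM with si-NRDE2-2 and 0.0323 ± 0.00625 FPKM with si-Control. The fibrillar collagen gene COL3A1 was at 0.00661, 0 and 0.136 FPKM in the si-NRDE2-2 replicates, against 0.0125, 0.00299 and 0.0376 FPKM in the si-Control replicates, with 1 library listed at 0. When genes were tested without a filter, SPARC and LAMA4 were called higher (log2 fold changes of 0.67 ± 0.11 and 0.57 ± 0.13, adjusted p = 0.00457 and 0.0181) and the other 8 did not pass (adjusted p from 0.0660 to 0.972).

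Matrix genes outside the 56 were taken from a second list of 135, drawn up by function, also with earlier results of these data known. Of these 64 were tested, 26 rose and 11 fell (57.8% called), with a median log2 fold change of 0.10. Of all tested genes 20.9% rose and 23.0% fell, 44.0% in all. The counts of the small groups below stand against that share, and some lie near it. Without si-Control replicate 2, 7 of them fell in place of 11. Among the collagens COL9A2, of a fibril-associated cartilage collagen, fell (-0.49 ± 0.06, adjusted p = 0.000130), while COL27A1 (0.36 ± 0.07) and the basement membrane chain COL4A5 (0.30 ± 0.09) rose. In the glycoproteins SPON2 (0.66 ± 0.12) and the fibulin family gene EFEMP1 (0.48 ± 0.04) rose, whereas LTBP4 (-0.35 ± 0.07) and the matricellular gene CYR61 (-0.25 ± 0.06) fell, with 3 of 12 tested in each direction. CYR61 was the highest of these, averaging 552 ± 26.9 FPKM with si-NRDE2-2 and 656 ± 22.5 FPKM with si-Control. Of 6 tested proteoglycan genes 5 rose, among them the syndecan genes SDC2 (0.50 ± 0.06) and SDC3 (0.23 ± 0.05), the glypican gene GPC6 (0.37 ± 0.10) and SRGN (0.46 ± 0.07), and 1 fell. The lysyl oxidase genes LOXL1 (0.46 ± 0.07) and LOXL4 (0.35 ± 0.04) and the procollagen protease gene BMP1 (0.18 ± 0.04) rose and the prolyl hydroxylase gene LEPRE1 (-0.33 ± 0.04) fell, in a group with 4 of 14 higher and 1 lower. Of 27 proteases and inhibitors 11 rose and 5 fell. Among these were the secreted proteases ADAMTS15 (0.55 ± 0.05), ADAMTS12 (0.52 ± 0.08) and ADAMTS9 (0.50 ± 0.06), which rose while the listed ADAMTS1 fell, and the inhibitor gene TIMP4 (-0.53 ± 0.08), which fell.

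The base composition of the transcripts moved with the direction of change. The 9 matrix genes that fell had a median GC content of 64.5%, the 22 that rose 52.1% and the 14 that did not pass 57.3%. Among all tested genes the medians were 51.3% for those that fell, 47.2% for those that rose and 48.6% for the rest. A GC content of at least 60% was found in 7 of the 9 that fell, ADAMTS1 and SDC4 being the exceptions, and in 3 of the 22 that rose, COL6A1, COL6A2 and SDC1. When trends with GC content and transcript length were removed from each library, all 31 called matrix genes kept their call and direction and 9 more were called. COL4A2, COL18A1, LAMA3, LAMB3, LOXL2, FBN1 and TIMP2 were then called higher and COL12A1 and LAMC1 lower. There 29 rose and 11 fell, against a background of 28.0% and 26.9% of all tested genes with an annotation. HSPG2 then stood at -0.55, AGRN at -0.51, LAMB2 at -0.52, FN1 at 0.71 and COL6A3 at 1.04 in log2 fold change.

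**Figure D4:**
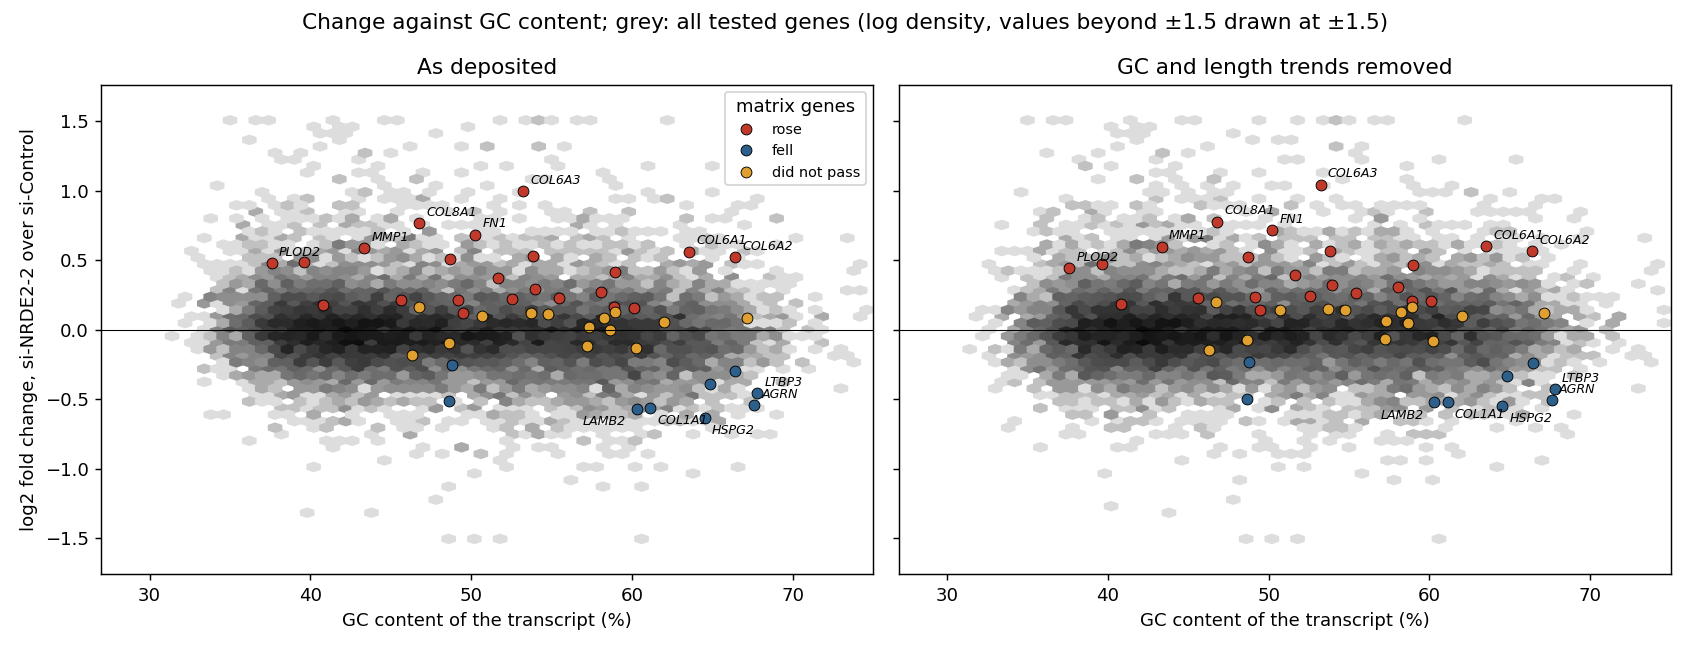
Log2 fold change (si-NRDE2-2 over si-Control) against GC content of the transcript for all tested genes (grey, darker where more genes lie, values beyond ±1.5 drawn at the edge) and the 45 matrix genes (coloured by their call before correction), as deposited on the left and with GC and length trends removed on the right. Of the 9 genes that fell 7 lie at or above 60% GC, and all 31 calls keep their sign on the right, where HSPG2 is at -0.55 and COL6A3 at 1.04.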

How the data were processed

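The authors deposited 1 table of FPKM values per gene and library. Per the labels' protocols, stranded polyA libraries were sequenced on an Illumina NextSeq500. The build hg19, the aligner STAR (2.5.1b) and DESeq2 (1.10.1) are named per the submitters' processing notes with no role, and no source used here states the program, annotation or strand setting behind the FPKM. The table has 4 further columns that are named for no library, and they were not used.

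From these values log2(FPKM + 0.1) was tested with limma 3.58.1 (R 4.3.3, trended and robust prior variance), si-NRDE2-2 against si-Control, with 3 libraries each. No further scaling between libraries was applied in this main fit. The FPKM total ran from 448496 in si-Control replicate 1 to 485776 in si-Control replicate 3. A gene entered the test if 3 or more libraries reached 1 FPKM. Rows of small RNAs (159 of which reached this limit) and 28 rows whose symbols had become dates were left out. P-values were adjusted over all 11770 genes by Benjamini and Hochberg, with calls under 0.05, and the fit was tested on simulated data. Ratios of FPKM were compared by exact permutation of the libraries. Depth was estimated with scipy 1.17.1 from the smallest steps between values of 1383 low genes (mean of at most 0.05 FPKM). Values within 0.02 of a whole multiple were taken as whole. Reads shared by similar genes and antisense transcripts could not be told apart from FPKM. The 4 rows of antisense partners of listed genes reached at most 0.0754 FPKM. GC content and length came from GENCODE 29, the promoter sequence from RefSeq (GRCh38.p14).

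The listed genes and the other lists were chosen with earlier results of these data known. Listed genes were all named, and from the other matrix genes up to 4 called genes per functional group with the largest change. A result that this rule would name is not reported here. The closing section gives the effect of other filters, pseudocounts, scalings, variance settings and of leaving out each library.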

Additional observations from a re-analysis of the deposited data

How the results depend on the processing

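Of the 31 called matrix genes 26 kept their call in every alternative run, 5 lost it in at least 1 (LAMB1, SDC1, P4HA1, MMP1 and MMP14), and 0 changed direction. Of the 14 not called, 10 were called in at least 1. Leaving out 1 library at a time gave 18 to 24 genes that rose and 9 to 12 that fell, with 6 collagens that rose and 2 to 4 that fell, 0 to 2 laminins that rose and 2 to 3 that fell, 0 to 1 proteoglycans that rose, 3 to 5 crosslinking enzymes that rose and 3 to 5 proteases and inhibitors that rose. Among the other matrix genes 20 to 27 rose and 7 to 12 fell, and among all tested genes 1917 to 2673 rose and 2002 to 2813 fell. With a mean of at least 5 FPKM required, 1 collagen, 0 proteases and 6 other matrix genes fell, since fewer genes were tested. The laminins that rose numbered 2 with no filter, 2 with quantile normalization, 0 with no trend in the prior variance and 3 with GC and length trends removed. The proteoglycans that rose numbered 0 with no filter and 0 with no trend in the prior variance. The laminins gained were LAMA4 with no filter, LAMB3 with quantile normalization, and LAMA3 and LAMB3 with trends removed. The calls lost were LAMB1 among the laminins and SDC1 among the proteoglycans. Why these calls depend on the setting was not tested. PLOD1, at -0.0023 in the report, was at 0.0026 with the medians set equal, 0.047 with GC and length trends removed, and -0.021 to 0.014 when 1 library was left out. PLAUR, at 0.02, was at -0.019 with quantile normalization and at -0.049 to 0.089 when 1 library was left out. Over all tested genes, same-numbered libraries did not deviate together (correlations of -0.12, 0.10 and -0.12). That does not settle whether the numbers pair the libraries, since single genes may still follow them. With the replicate number as a block 20 matrix genes rose and 9 fell, and 0 laminins rose. Each group holds 3 libraries of 1 cell line and 1 siRNA per group, the FPKM carry no counts, and small changes of low genes were not detectable at this precision.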
